A study of Mus musculus with 3 samples.

Results

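The lipoxygenases Alox12e, Alox12, Alox15 and Alox5, the leukotriene genes Alox5ap and Ltc4s, the prostaglandin synthesis genes Ptgs1, Ptgs2 and Ptges, and the phospholipase gene Pla2g4a were examined in mouse mammary tumor cells cultured with and without RANKL, the ligand of the receptor RANK. These 10 genes were selected on the RANKL response itself, because Alox12e was among the largest rises on the same arrays, and the others were added for their place in eicosanoid synthesis. They are 10 of the 21154 named genes with a probe on the array and are read by 12 probes. The difference between RANKL and control is therefore given for them as a description, without a test.

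Tumors from 3 mmtv-PyMT mice, called tumors 1, 2 and 3 here, were grown as primary cultures. In these mice the MMTV promoter drives the polyoma middle T antigen mainly in mammary epithelium. For each tumor, 1 culture received RANKL for 24 h and 1 was left without it, and both RNAs were hybridized to a shared Agilent array, which gave 3 arrays and 6 channels. RANKL samples carried Cy3 in tumors 1 and 3 and Cy5 in tumor 2. Every culture, control or treated, was kept in DMEM F12 with fetal bovine serum, penicillin and streptomycin, cholera toxin, insulin and EGF. The labels state a RANKL dose of 1000 µg/ml, whereas the methods of the study state a lower dose, so the dose is uncertain. Strain and age of the mice are not in the labels.

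Eicosanoids are signaling lipids made from arachidonic acid, which the phospholipase encoded by Pla2g4a releases from membranes. Cyclooxygenases (Ptgs1, Ptgs2) turn it into prostaglandin H2, the precursor from which Ptges makes prostaglandin E2, while lipoxygenases add oxygen to it and start the routes to leukotrienes and hydroxy fatty acids. Alox12e is an epidermal-type lipoxygenase of the mouse, and in mammary tumors cyclooxygenase products have long been studied as growth and inflammation signals.

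Each array held 59305 probe spots. In Cy3, spots of tumors 1, 2 and 3 had median intensities of 42, 43 and 45 beside local backgrounds of 31, 34 and 36. In Cy5, medians of 96.5, 99 and 100.5 stood beside backgrounds of 70, 71 and 73. A level below is the log2 of a normalized intensity, and a log2 ratio is RANKL over control on the same array. Precision is limited by the number of arrays. A p-value from limma rests on the spread between 3 tumors, moderated toward the spread seen over all genes. The reversed dye order of tumor 2 cannot be told apart from that spread. An offset of 50 in the background correction compresses the ratios of dim genes. Tumor 2 stood apart from the others over the whole array. Across 21721 genes and transcripts, which do not vary independently, Pearson's r between the ratios of tumors 1 and 3 was 0.452, while tumor 2 had −0.110 with tumor 1 and −0.106 with tumor 3. Its dye order is the reverse of theirs, so what is particular to this tumor and what comes from the dyes cannot be told apart.

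Of the 12 probes, 9 were kept because in at least 1 condition, control or RANKL, the scanner software put them well above background on all 3 arrays. This left 8 of the 10 genes in the fit. The probes of 7 genes were well above background in all 6 channels. For 3 genes, Alox12e, Ltc4s and Ptges, every tumor had a ratio above 0, and for 2 genes, Alox5ap and Ptgs1, every tumor had one below 0. Among all genes and transcripts with a value on each array, 14.2% were above 0 in all 3 tumors and 13.3% below. With each array centered on its median in place of loess, the mean ratios of Ltc4s and the brighter Ptges probe lay on the other side of 0, at −0.0016 and −0.10, and the dimmer Ptges probe stayed above it at 0.14, while the median of all genes moved to −0.11. Relative to that median, Ltc4s and the brighter Ptges probe were 0.11 and 0.01. The means of Alox5ap and Ptgs1 stayed below 0 under that centering, but their ratios in tumor 2 were then 0.33 and 0.45. Of these 5 genes only Alox12e kept 1 sign in all 3 tumors. Other members were above 0 in tumor 2 as well, with 0.42 for Alox12e, 0.41 for Ltc4s and 0.69 for the brighter Ptges probe. Ptgs2 had 0.48 and Pla2g4a 0.36, while Alox12 had −0.11 at its brighter probe. High ratios in tumor 2 under that centering were thus not particular to Alox5ap and Ptgs1. Without tumor 2 the means were 1.21 for Alox12e, 0.15 for Ltc4s, 0.12 for Ptges, −0.17 for Alox5ap and −0.34 for Ptgs1.

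**Figure D1:**
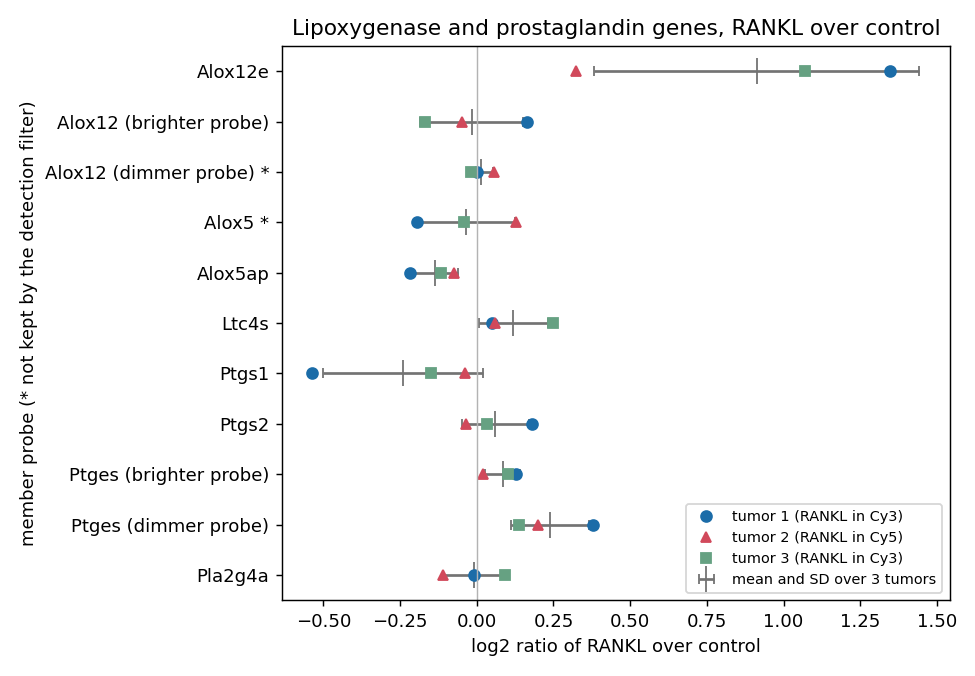
Log2 ratio of RANKL over control (horizontal axis) for each probe of the eicosanoid genes that was well above background in any channel (vertical axis, a star where the probe was not kept), with 1 point per tumor and bars for the mean and SD over 3 tumors. Alox12e lies at 1.35, 0.32 and 1.07 in tumors 1, 2 and 3, and Ptgs1 at −0.54, −0.04 and −0.15.

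Alox12e and Alox12 lie near each other in the genome and Nfkbia is a known target of NF-κB, the factor that RANK activates, so their RefSeq promoter windows are shown for comparison. Each is the 250 bases before the listed start, from GRCm38.p6, read 5′ to 3′ along the minus strand, at chr11:70322531-70322780 for Alox12e, chr11:70255371-70255620 for Alox12 and chr12:55492648-55492897 for Nfkbia. Capitals mark a match to the NF-kB consensus.
Alox12e: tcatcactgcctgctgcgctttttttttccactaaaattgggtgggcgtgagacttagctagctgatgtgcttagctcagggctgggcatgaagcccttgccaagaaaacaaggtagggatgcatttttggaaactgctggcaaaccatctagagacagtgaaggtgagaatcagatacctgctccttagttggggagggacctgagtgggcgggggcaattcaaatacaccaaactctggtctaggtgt
Alox12: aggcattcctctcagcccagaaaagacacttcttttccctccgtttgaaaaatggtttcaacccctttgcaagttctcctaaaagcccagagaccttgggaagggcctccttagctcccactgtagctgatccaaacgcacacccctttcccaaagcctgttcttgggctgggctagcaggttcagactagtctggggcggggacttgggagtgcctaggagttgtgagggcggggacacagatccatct
Nfkbia: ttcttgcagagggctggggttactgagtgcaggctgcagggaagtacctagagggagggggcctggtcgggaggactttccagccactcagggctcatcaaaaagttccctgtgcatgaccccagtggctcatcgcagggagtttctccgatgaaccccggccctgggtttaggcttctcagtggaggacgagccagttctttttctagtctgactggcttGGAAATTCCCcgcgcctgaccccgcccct
The NF-kB consensus and TGANTCA, which covers the AP-1 consensus, were searched on both strands, and no match of either overlapped the other in these windows. Of 32851 windows of the same length, 3.9% held the first and 6.75% the second. RefSeq windows were found for 8 of the 10 genes, 9 windows in all, and 0 of these held either motif. The table of windows had none for Alox15 and Alox5ap. The window of Nfkbia held the NF-kB consensus from position −29 to −20 relative to the start. A match is a description of the letters and not a binding site, and its absence says only that these letters are not in this window.

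Alox12e had control levels of 7.67, 6.66 and 8.80 in tumors 1, 2 and 3, and levels of 9.02, 6.98 and 9.86 with RANKL. The RANKL culture was the higher one in each tumor, but the ranges overlapped, since tumor 2 with RANKL lay below the controls of tumors 1 and 3. Its ratios were 1.35, 0.32 and 1.07, with a mean of 0.91 (SD 0.53, n = 3), a 1.88-fold difference. Tumor 2 had the smallest ratio and the lowest level, and its processed intensities were 27.6 without and 48.7 with RANKL. They were 116 and 385 in tumor 1 and 330 and 715 in tumor 3. Tumor 2 is also the array with RANKL in Cy5, so tumor and dye order cannot be told apart, and a dye term in the fit put the ratio at 0.76. By its mean ratio Alox12e ranked 3 of 14045 named genes tested, the value that led to its choice. It has 1 probe with 1 spot per array, so no other probe checks it. In bulk RNA, fewer or more cells of a type and less or more RNA per cell cannot be told apart.

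Alox12, the platelet-type lipoxygenase, had control levels of 6.13, 6.35 and 7.02 at its brighter probe and RANKL levels of 6.30, 6.30 and 6.85. The probe was well above background in 2 control and 3 RANKL channels, tumor 3 was the highest in both conditions, and the groups overlapped. The ratios were 0.16, −0.05 and −0.17 (mean −0.02, SD 0.17), and the mean changed sign in 4 of 14 alternative settings. Its dimmer probe was well above background in tumor 3 alone and was not kept, with ratios of 0.00, 0.06 and −0.02. Alox15, the 12/15-lipoxygenase of macrophages, was not well above background in any of the 6 channels, and no ratio is given. Alox5, which starts leukotriene synthesis, had control levels of 6.34, 6.12 and 6.30 and RANKL levels of 6.14, 6.25 and 6.26, with ratios of −0.19, 0.13 and −0.04 on both sides of 0. It was well above background in 2 control channels (tumors 1 and 3) and in 2 RANKL channels (tumors 2 and 3), so it was left out of the fit.

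Alox5ap, which presents arachidonic acid to the product of Alox5, had control levels of 8.97, 9.13 and 8.90 and RANKL levels of 8.75, 9.05 and 8.79. In every tumor the RANKL culture was the lower one, yet the groups overlapped, as tumor 2 with RANKL lay above the controls of tumors 1 and 3. The ratios were −0.22, −0.07 and −0.12 (mean −0.14, SD 0.07). Ltc4s, which makes leukotriene C4, had control levels of 8.15, 7.97 and 7.96 and RANKL levels of 8.20, 8.03 and 8.21. Its ratios were 0.05, 0.06 and 0.25 (mean 0.12, SD 0.11), and the ratio of tumor 3 stood above the others, with a mean of 0.05 without it. The groups overlapped, since tumor 2 with RANKL was lower than the control of tumor 1.

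Ptgs1, the constitutive cyclooxygenase, had control levels of 9.05, 10.17 and 10.11 and RANKL levels of 8.52, 10.13 and 9.96. Tumor 1 was the lowest in both conditions and the groups overlapped. The ratios were −0.54, −0.04 and −0.15 (mean −0.24, SD 0.26), and without tumor 1 the mean was −0.09. Ptgs2, the inducible cyclooxygenase, had control levels of 11.99, 10.50 and 13.01 and RANKL levels of 12.17, 10.47 and 13.04. It differed far more between tumors than between conditions, with tumor 3 highest and tumor 2 lowest. The ratios were 0.18, −0.03 and 0.03 (mean 0.06, SD 0.11). The mean rested on tumor 1 and was 0.0002 without it, and median centering put the mean at −0.14, which is −0.03 relative to the median of all genes. Ptgs2 is spotted 10 times on each array, and the spots used gave ratios from 0.09 to 0.28 in tumor 1, from −0.09 to 0.01 in tumor 2 and from −0.05 to 0.08 in tumor 3. The spots of tumor 1 were thus all above 0, and those of tumor 3 lay on both sides of it.

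Ptges, the inducible prostaglandin E synthase, had control levels of 13.40, 13.44 and 13.22 and RANKL levels of 13.53, 13.46 and 13.33 at its brighter probe. RANKL was the higher one within each tumor and the groups overlapped. The ratios were 0.13, 0.02 and 0.10 (mean 0.08, SD 0.06). The dimmer probe gave 0.38, 0.20 and 0.14 (mean 0.24, SD 0.13), also above 0 in each tumor. Pla2g4a, the first step of the pathway, had control levels of 11.80, 10.29 and 11.68 and RANKL levels of 11.79, 10.18 and 11.77. Tumor 2 was the lowest in both conditions, and the ratios of −0.01, −0.11 and 0.09 (mean −0.01, SD 0.10) lay on both sides of 0.

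The untreated cultures differed widely in some of these genes and little in others. The SD of the control level was 1.26 for Ptgs2, 1.07 for Alox12e, 0.84 for Pla2g4a and 0.63 for Ptgs1, and a higher SD was seen in 1.09%, 1.69%, 3.05% and 5.67% of all genes tested. It was 0.46 for Alox12, with a higher SD in 10.2% of genes. It was 0.11 for each of Alox5ap, Ltc4s and the brighter Ptges probe, below the median of 0.16 over all genes tested, but 0.43 for the dimmer Ptges probe, so the 2 probes of Ptges differ in this. Tumor 2 was the lowest for Ptgs2, Alox12e and Pla2g4a, in the control and in the RANKL channel, whereas Ptgs1 was lowest in tumor 1. The control of tumor 2 was read in Cy3 and those of tumors 1 and 3 in Cy5, and tumor 2 was the lowest for those 3 genes in both dyes.

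**Figure D2:**
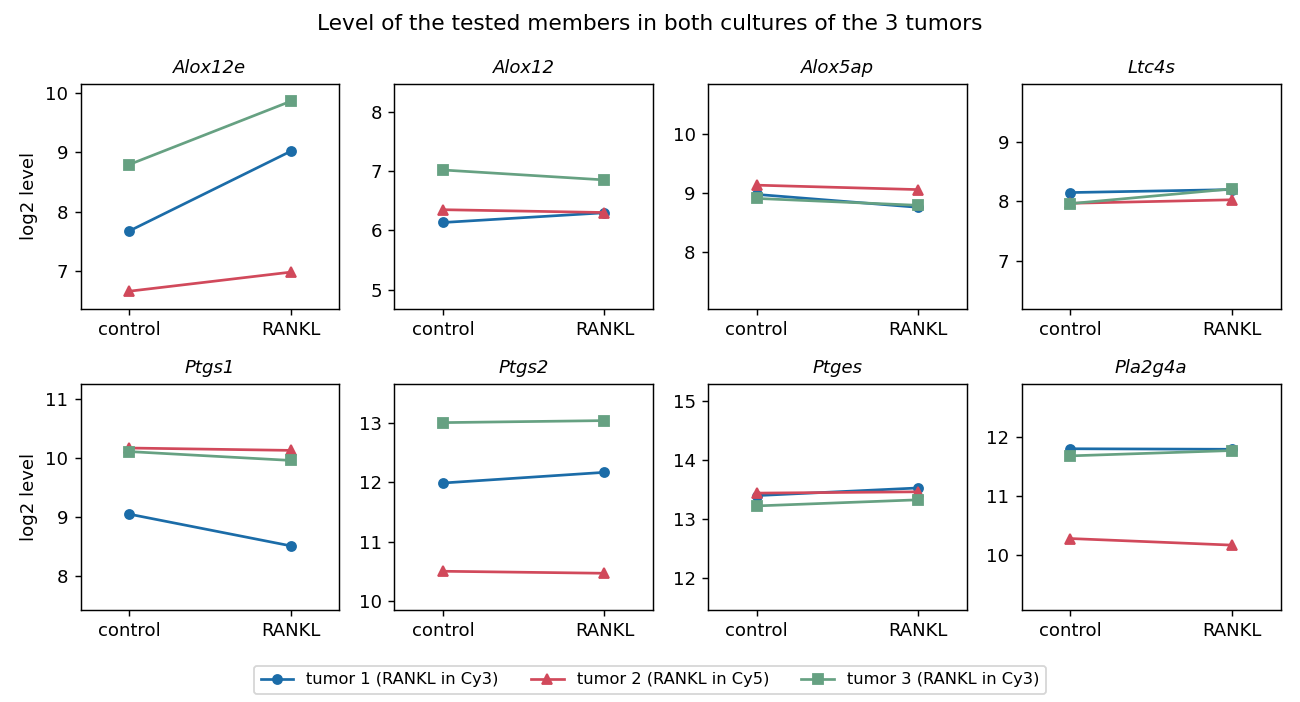
Level (log2 of normalized intensity, vertical axis) of the 8 eicosanoid genes with a kept probe in the control and RANKL culture of each tumor, joined by a line per tumor, with axes of equal span. Ptgs2 runs from 10.50 to 13.01 between the control cultures, and Alox12e from 6.66 to 8.80.

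The 5 named genes whose 3 ratios lay nearest to those of Alox12e, by Euclidean distance over the 3 tumors among 14028 genes, were Plxnd1, Traf1, Chadl, Fcgbp and C1qtnf1. Plxnd1 was the nearest, at a distance of 0.205, with ratios of 1.27, 0.28 and 0.88. The others had distances from 0.465 to 0.691 and were, like Alox12e, highest in tumor 1, a pattern that a choice by these same ratios favors. In tumor 3 Traf1, Chadl, Fcgbp and C1qtnf1 had 0.65, 0.61, 0.59 and 0.39. The NF-κB response gene Nfkbia had ratios of 1.48, 0.47 and 0.38 (mean 0.77, adjusted p = 0.321 from limma, higher in 3 of 3 tumors), and its proportion of false positives by rank product was 0.00122. Nfkb2 had 1.25, 0.43 and 0.20 (adjusted p = 0.405 from limma, proportion of false positives 0.0283), and Relb 1.15, 0.29 and 0.21 (0.454 and 0.0718). The receptor gene Tnfrsf11a had 0.11, −0.08 and 0.13. Nfkbia, Nfkb2 and Relb were thus also highest in tumor 1, and in tumor 3 they had lower ratios than Alox12e, close to that of C1qtnf1 in the case of Nfkbia.

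**Figure D3:**
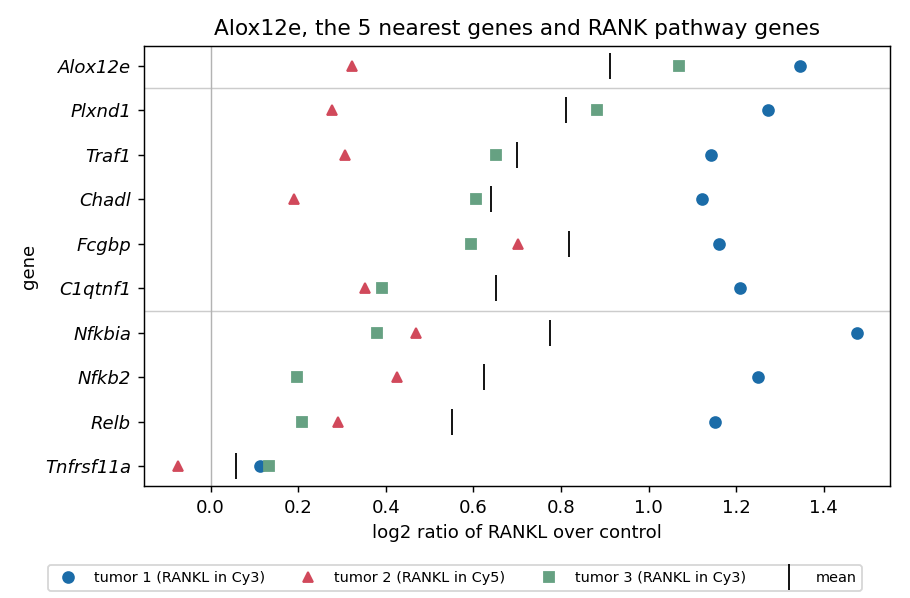
Log2 ratio of RANKL over control (horizontal axis) of Alox12e, the 5 named genes nearest to it and 4 genes of the RANK pathway (vertical axis), 1 point per tumor and a line at the mean. In tumor 3 Alox12e is at 1.07, Plxnd1 at 0.88 and Nfkbia at 0.38.

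The other genes of eicosanoid metabolism were taken from a list of 81, of which 80 were on the array, 18 were not well above background in any channel and 51 were tested. By limma, 0 of the 51 passed an adjusted p of 0.05 in either direction. At an unadjusted p under 0.05 there were 2 higher and 2 lower, and the rank product put 0 higher and 1 lower. Over all 21743 genes and transcripts tested, limma put 0.00460% higher and 0.0230% lower at the adjusted threshold, and 3.61% higher and 3.56% lower unadjusted. The rank product put 0.166% higher and 0.235% lower. The median ratio of the 51 genes was −0.02, beside −0.00068 over all genes tested, and 49 of them (96.1%) lay within 0.25 of 0, beside 97.3% of all genes tested. In all 3 tumors 6 were above 0 (11.8%) and 10 below (19.6%), beside 14.2% and 13.3% of all genes.

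By role, 10 of 22 phospholipases and lipases, 6 of 10 lipoxygenases and leukotriene enzymes, 9 of 10 prostanoid synthases and 7 of 8 genes of inactivation and transport were tested. Their median ratios were −0.03, −0.07, −0.01 and 0.04. Of 6 epoxygenase genes 5 were tested, with a median of −0.09, and the 9 genes that handle arachidonate had −0.05. Only 5 of 16 eicosanoid receptors were tested and 7 were not well above background in any channel, so most receptors could not be compared at this signal.

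**Figure D4:**
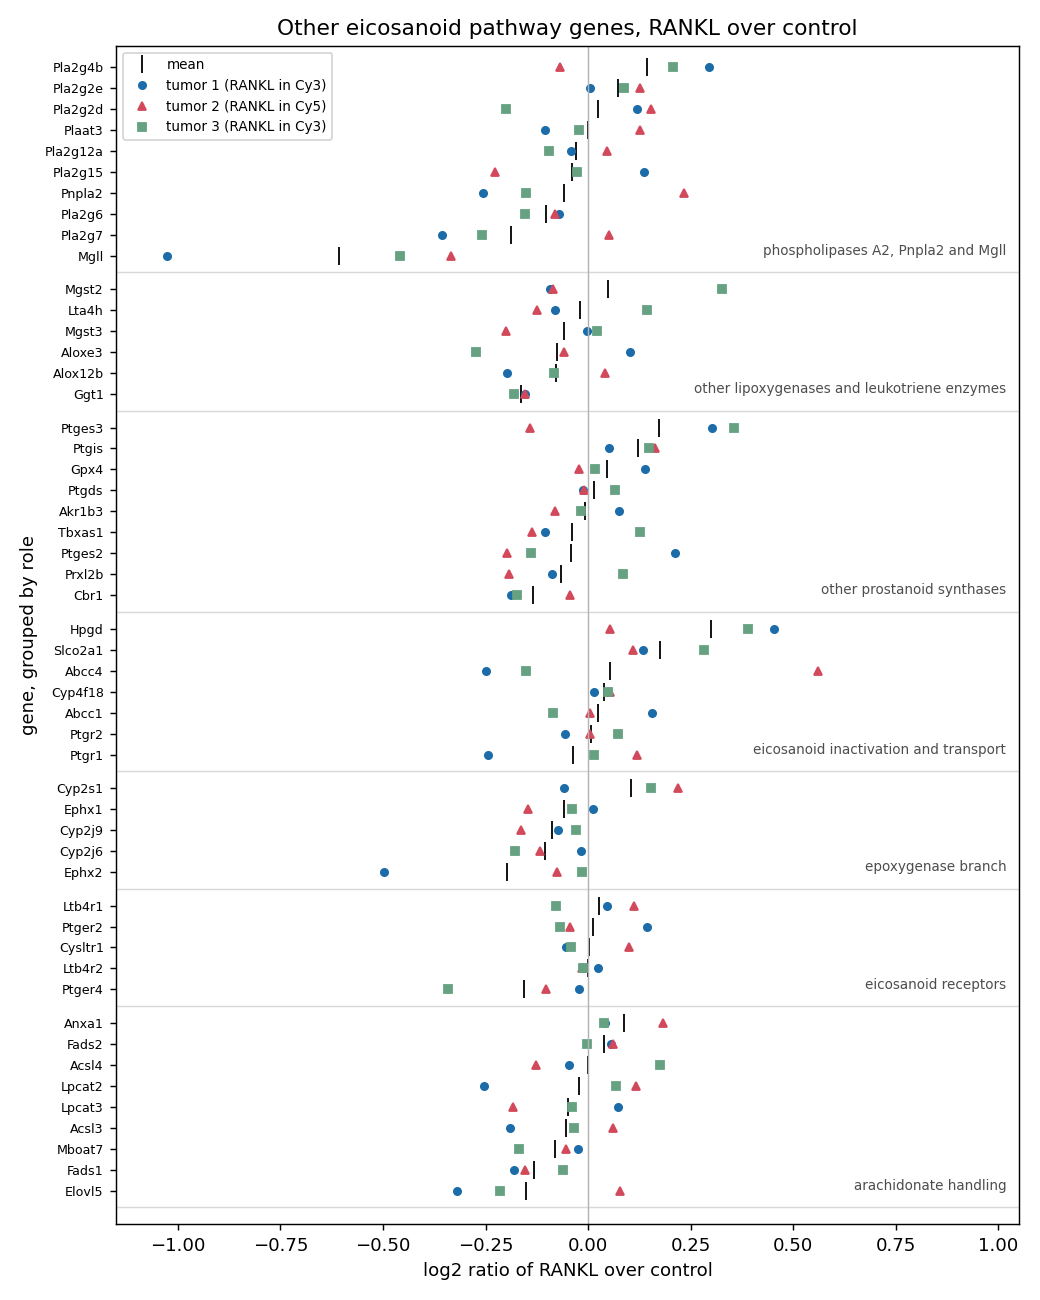
Log2 ratio of RANKL over control (horizontal axis) of the 51 tested genes of eicosanoid metabolism (vertical axis, grouped by role), 1 point per tumor and a line at the mean. The means run from −0.61 for Mgll to 0.30 for Hpgd.

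Mgll, a monoacylglycerol lipase that frees arachidonic acid from an endocannabinoid and is not a phospholipase, had control levels of 10.98, 8.70 and 8.79 and RANKL levels of 9.95, 8.36 and 8.33. It was lower with RANKL in 3 of 3 tumors, tumor 1 was the highest in both conditions, and the groups overlapped. The ratios were −1.03, −0.33 and −0.46 (mean −0.61, SE of these ratios 0.21, moderated SE 0.12 and adjusted p = 0.229 from limma). The rank product put its proportion of false positives at 0.00661. In limma, the adjusted p passed 0.05 without tumor 2 (5.81e-06), when both remaining arrays have RANKL in Cy3, and with a dye term (0.000183), and over 17 alternatives it ran from 5.81e-06 to 1.00. Without tumor 1 the mean was −0.40 (adjusted p = 0.573). Further probes of Mgll gave −0.73, −0.23 and −0.16, and −0.89, −0.38 and −0.09, also lowest in tumor 1, and 1 more probe was not well above background in any channel.

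Hpgd, which inactivates prostaglandins, had control levels of 6.84, 7.68 and 6.42 and RANKL levels of 7.30, 7.73 and 6.81. The RANKL culture was the higher one in 3 of 3 tumors and the groups overlapped. The ratios were 0.45, 0.05 and 0.39 (mean 0.30, SE of these ratios 0.12, moderated SE 0.09 and adjusted p = 0.484 from limma). The dimmer probe gave 0.29, −0.07 and −0.01. Without tumor 2 the adjusted p was 0.00112, within a range from 0.00112 to 1.00 over 17 alternatives. Slco2a1, a prostaglandin transporter, had ratios of 0.13, 0.11 and 0.28 (mean 0.18, adjusted p = 0.679 from limma). Median centering put its mean at 0.002, which is 0.11 relative to the median of all genes. Ptgis, the prostacyclin synthase, had 0.05, 0.16 and 0.15 (mean 0.12, adjusted p = 0.779), and median centering put the mean at −0.03, which is 0.08 relative to that median. With the authors' ratios it was 0.22. These were the 3 highest mean ratios of the list with 1 sign in all tumors, and 0 of them passed the adjusted threshold.

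Ephx2, which hydrolyses epoxides of arachidonic acid, had ratios of −0.50, −0.08 and −0.02 (mean −0.20, adjusted p = 0.746 from limma). Its mean rested on tumor 1 and was −0.05 without it. Ggt1, which trims leukotriene C4, had ratios of −0.15, −0.15 and −0.18 (mean −0.16, adjusted p = 0.686), the smallest spread of these 6 named pathway genes. Its mean was −0.48 with processed signals and −0.26 with the authors' ratios. Median centering put the mean at −0.16, which is −0.045 relative to the median of all genes. Pla2g7 and Ptges3, named after their values were seen, passed the adjusted p, among the limma settings run, only without tumor 2, with means of −0.31 and 0.33. Their ratios in tumor 2 were 0.05 and −0.14, on the other side of 0.

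Cell type markers were read beside these genes, 66 in 8 lists, of which 44 were tested. By limma 0 passed the adjusted p of 0.05, and 0 passed by rank product. Without adjustment, limma's p was under 0.05 for 7 markers that were lower (15.9%) and 0 that were higher, beside 3.61% higher and 3.56% lower over all genes tested. The markers that were lower are thus a larger share than among all genes, and what this has to do with the eicosanoid genes was not tested. The labels call the cultures mammary tumor cells, and all 9 epithelial markers were well above background in all 6 channels. Krt18 was the brightest, and the tested markers had mean levels of 14.15, 13.71 and 14.39 in controls and 14.22, 13.58 and 14.28 with RANKL. Their median ratios were 0.17, −0.18 and −0.06 in tumors 1, 2 and 3, and Krt18 had −0.72, 0.42 and −0.70, with tumor 2 on the other side of 0 in each case from tumor 1. For keratinized squamous epithelium, where Alox12e is known, 5 of 10 markers were well above background in all channels, Sbsn was the brightest, and Krt1, Flg and Dsg1a were in no channel. Their mean levels were 7.71, 8.71 and 9.07 in controls and 7.78, 8.72 and 9.01 with RANKL, and the median ratio was 0.01. They were highest in tumor 3 and lowest in tumor 1 in both conditions, and their part in the levels of Alox12e was not tested.

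Macrophages express Alox5ap and Ptgs1, and 9 of 10 macrophage and myeloid markers were well above background in all channels, with Cd14 the brightest. Ptprc was not, and its mean level was 6.32. Their mean levels were 9.07, 8.54 and 8.95 in controls and 8.99, 8.50 and 8.94 with RANKL. The mean ratio was above 0 for 5 of the 10 and below 0 for 5, with a median of −0.0017. Cd68, C1qa and Tyrobp were below 0 in all 3 tumors and 0 of the 10 were above 0 in all 3, with ratios of −0.35, −0.14 and −0.18 for Cd68. Cd14 had 0.56, −0.18 and 0.06. Platelets express Ptgs1 and Alox12, and of 7 platelet markers 4 were well above background in all channels, while Itga2b, Gp1ba and Gp9 were in none. Itgb3 was the brightest of them, and the mean levels were 9.42, 8.58 and 9.93 in controls and 9.17, 8.55 and 9.84 with RANKL. Of the 4 tested, 3 had a mean below 0, and the median was −0.12. Pf4, at −0.69, −0.03 and −0.21, and Ppbp, at −0.19, 0.02 and 0.32, were lowest in tumor 1, while Itgb3, at −0.15, −0.16 and −0.18, and Treml1, at 0.02, 0.05 and −0.31, were lowest in tumor 3. Cd68, C1qa, Pf4 and Itgb3 are 4 of the 7 markers that were lower without adjustment. Which cells of the cultures gave the signal of these markers was not tested. Any part of macrophages or platelets in the ratios of Alox5ap and Ptgs1, the 2 members below 0 in every tumor, was not tested either.

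Granulocytes and mast cells also express Alox5ap and Ltc4s. Of 8 granulocyte markers 3 were well above background in all channels, S100a8 was the brightest, and Ly6g, Cxcr2, Siglecf and Epx were in none. The granulocyte mean levels were 9.99, 10.69 and 10.15 in controls and 9.62, 10.61 and 10.09 with RANKL. All 3 tested had a mean ratio below 0, with a median of −0.13, and S100a8 had −0.78, −0.34 and 0.02. Of 8 mast cell markers 2 were, Kit was the brightest, and Cpa3, Cma1, Fcer1a and Ms4a2 were in none. The mast cell mean levels were 9.95, 9.89 and 9.81 in controls and 9.85, 9.82 and 9.57 with RANKL. Both tested had a mean below 0, with a median of −0.14, and Kit had −0.09, −0.31 and −0.25. S100a8 and Kit are also among those 7 markers. Which cells of the cultures gave the signal of these markers was not tested, nor was any part of granulocytes or mast cells in the ratios of Alox5ap and Ltc4s. All 8 fibroblast markers were well above background in all channels, with Col1a1 the brightest and a median ratio of −0.05. Their medians were −0.29, 0.13 and −0.05 in tumors 1, 2 and 3. Pdgfra, at −0.38, −0.15 and −0.04, is also among the 7 markers that were lower without adjustment. Of 6 endothelial markers 2 were, with a median ratio of −0.004, and Tek was in none. Kdr was the brightest, at 0.18, −0.07 and 0.21, while Pecam1 went the other way in each tumor, at −0.19, 0.15 and −0.30.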

How the data were processed

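RNA from 3 pairs of tumor cultures was measured on 3 arrays. For each spot the authors deposited the median intensity and local background per dye, read without correction by Agilent Feature Extraction 10.7.3.1. Its processed intensities, corrected and dye-normalized by that software, and the log10 ratio of Cy5 over Cy3 were deposited with them. The authors also deposited normalized log2 ratios, for which the table states neither scale, centring nor direction. Their column medians were 0.00244, −0.0011 and 0.00069, and by comparison with the spots (r of 0.881, 0.874 and 0.880 across spots) they are Cy5 over Cy3.

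The arrays were normalized with limma 3.58.1 under R 4.3.3, using normexp (offset 50), loess and spatial loess (span 0.1) within arrays, Aquantile between arrays. Outlier spots (204, 195 and 223) and 3671 control spots per array were left out, and spots of a probe were averaged. RefSeq accessions named 28026 of 55681 probes. The brightest kept probe stood for a gene, 29431 probes were kept, and 21743 genes and transcripts were tested, 21721 of them on all arrays. The mean ratio was tested by moderated fits in limma (residual degrees of freedom 2, prior 6.90), with Benjamini-Hochberg adjustment and a threshold of 0.05. The ratio pairs both cultures of a tumor, as the labels give them. Programs were tested on simulated data.

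The members and lists were chosen with earlier results of these data known. Named were all members, the pathway genes called by limma, the 3 highest and 3 lowest mean ratios of the pathway list with 1 sign on all arrays, 4 genes of the RANK pathway, the 5 genes nearest to Alox12e and the brightest gene of each marker list. Alternatives were no background correction, an offset of 16, processed signals, no spatial loess, median centering, no Aquantile, outlier spots kept, the authors' ratios, other filters on dim probes, the mean over probes, each other kept probe of a member and, chosen after seeing the data, of Mgll and Hpgd, a dye term, an intensity trend, robust moderation, a rank product (1000 permutations, seed 1) and each tumor left out. No set was tested and no coordinates of probes are given, since the array was designed on another build.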

Additional observations from a re-analysis of the deposited data

How the results depend on the processing

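The alternatives named under the processing were run, and those of the other probes of Mgll and Hpgd were chosen after seeing the data. Against 1 gene higher and 5 lower by limma, the counts were 6 and 12 without background correction, 9 and 22 with an offset of 16, 0 and 0 with processed signals and with median centering, and 0 and 3 when dim probes were not filtered. A dye term gave 125 and 171, eBayes with an intensity trend 11 and 23, robust eBayes 7 and 12, and the rank product 36 and 51. The authors' ratios gave 2 higher, and detection in all 6 channels 0 higher. Leaving out a tumor gave from 0 to 591 higher and from 2 to 887 lower. The highest counts came without tumor 2, the only array with RANKL in Cy5, and the cause was not tested.

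Of the eicosanoid pathway genes, 0 were called, but from 0 to 4 with a tumor left out, 1 with a dye term and 1 by rank product. Their median of −0.02231 was −0.01813 without background correction, −0.05097 with processed signals, −0.02918 without spatial loess, −0.1495 with median centering, −0.02856 with the authors' ratios, −0.002193 without a filter, −0.01063 with a dye term, and from −0.02572 to −0.001116 with a tumor left out. With median centering the median of all genes was −0.11, and the pathway median was −0.04 relative to it. The cause of the other shifts was not tested.

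The mean ratio of Alox12e lay between 0.70 and 1.22 over 15 alternatives, and between 0.70 and 1.21 with a tumor left out. The means of Alox5ap (−0.24 to −0.10) and Ptgs1 (−0.38 to −0.09) kept their sign over 15 alternatives each. So did those of Mgll (−0.75 to −0.37) over 17 and Hpgd (0.07 to 0.59) over 16, other probes included. Several alternatives could not change a sign, so these counts say little. Leaving out a tumor or adding a dye term averages ratios that had 1 sign in all 3 tumors. Alox12e, Alox5ap and Ptgs1 have 1 kept probe each. Their means were the same without Aquantile, with outlier spots kept, with other filters and with the mean over probes. The other probe of Hpgd gave the lowest of its values. Ltc4s (−0.0016 to 0.15), Ptgs2 (−0.14 to 0.11) and Ptges (−0.10 to 0.24) changed sign with median centering alone. Alox12 (−0.11 to 0.29) and Pla2g4a (−0.18 to 0.04) had means near 0 and changed sign in 4 and 3 settings. Signal over background limits what can be said of Alox15, Alox5 and, in some channels, Alox12.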

Other observations

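Alox12e lies in a cluster with other lipoxygenase genes. Among genes with a named probe on the array, the 5 before and the 5 after it in RefSeq order were described. They were described after the values of the lipoxygenases were seen, and 8 of the 10 were tested. Their mean log2 ratios ran from −0.21 for Rnasek to 0.45 for Cxcl16. Cxcl16, a chemokine gene, had ratios of 0.68, 0.45 and 0.23 in tumors 1, 2 and 3, and Arrb2 and Med11 were also above 0 in all 3. These are 3 of 8, beside 14.2% of all genes, a description of few genes without a test, and Rnasek was below 0 in all 3, at −0.19, −0.09 and −0.34. Of the flanking lipoxygenases, Alox12 was tested and Alox15 was not well above background in any channel.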
